A study of Mus musculus with 8 samples.

Results

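Fatty acid desaturases put double bonds into fatty acids at the endoplasmic reticulum and so set how unsaturated membrane and milk lipids are. The 8 genes described here are the stearoyl-CoA desaturases Scd1, Scd2, Scd3 and Scd4 and the front-end family members Fads1, Fads2, Fads3 and Fads6. They were taken by gene symbol from the deposited expression table, which gave 25050 genes in all, and each of the 8 had a single probe set. The table holds 8 arrays of mammary epithelial cells from wild-type FVB mothers in their first reproductive cycle, 4 from day 14 of pregnancy (secretory differentiation) and 4 from day 4 of lactation (secretory activation). The cells of both stages had been depleted of adipocytes by a rapid enzyme digestion, and no mutant or drug-treated group was analysed here. Nothing in the labels says that the 4 arrays of a stage came from different mothers, so the p-values reflect only how far these samples spread, which may be technical. Values are log2 levels on the GC-RMA scale, a background correction and normalization for Affymetrix arrays, and run from 2.04 to 13.03.

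In lipogenic tissues the stearoyl-CoA desaturases convert palmitoyl-CoA and stearoyl-CoA to palmitoleoyl-CoA and oleoyl-CoA, the monounsaturated acids of triglyceride. Fads2 begins the conversion of the dietary essential fatty acids linoleic and alpha-linolenic acid to long polyunsaturated acids, elongases lengthen the chain, and Fads1 adds a further double bond to give arachidonic and eicosapentaenoic acid. The desaturases among these enzymes draw electrons from cytochrome b5. Transcription of Scd1, Fads1 and Fads2 is known from mouse liver to be driven by the sterol regulatory element binding proteins (SREBPs), which work with the CCAAT-binding factor NF-Y, and Scd1 is also a target of the liver X receptors named in the title of the series.

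The caseins, milk proteins of secretory epithelium, were among the brightest genes on the arrays of both stages. All 8 secretory alveolar markers, among them the caseins Csn1s1, Csn2 and Csn3, passed the threshold as higher in lactation, and Csn2, beta-casein, averaged 12.36 in pregnancy and 12.72 in lactation (log2, n = 4 per stage). The casein levels lie near the top of the scale, at 13.03, where GC-RMA values can be compressed, so their rises may be understated. Of 9 general luminal epithelial markers 1 passed as higher and 7 as lower. Over all genes, 9.73% passed as higher in lactation and 16.1% as lower. Markers of other cells were also present. Of 12 adipocyte markers 2 passed as higher in lactation (1 without lactation day 4 replicate 1 or without pregnancy day 14 replicate 3 or 4), and the log2 of their summed signal ran from 11.68 to 12.49 in lactation and from 10.91 to 12.19 in pregnancy. Of 8 fibroblast markers 6 passed as lower in lactation (between 0 and 3 without lactation day 4 replicate 1 or 2 or without any single pregnancy array). These calls all ended without moderation, with every probe set tested or with the replicate number as a block. The log2 of the summed fibroblast signal was 9.87 to 11.11 in lactation against 11.22 to 11.97 in pregnancy. Of 10 macrophage markers 3 were lower (5 without lactation day 4 replicate 3), of 6 T cell markers 5 (3 without lactation day 4 replicate 2, and none without moderation or with the fibroblast markers as a term), and of 8 basal markers 1 was higher and 1 lower (none lower without pregnancy day 14 replicate 1 or 3, 2 without lactation day 4 replicate 3). No defining marker is at 0, since the scale has no 0. The part of these cells in the results was not tested, though some fits below include their markers. These are bulk samples, in which fewer cells of a type and less RNA per cell cannot be told apart.

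Of the 8 desaturases, 6 passed the threshold of a limma adjusted p under 0.05, against 25.8% of all genes tested. The 5 that rose in lactation were Scd1, Scd2, Scd3, Fads1 and Fads2, where 9.73% of all genes were called higher, and the 1 that fell was Fads3, where 16.1% were called lower. The median log2 fold change of the 8 was 0.93, beside 0.01 for all 25050 genes. In each of these 6 genes the 4 arrays of a stage all lay on one side of the other 4, as they did in 29.6% of all genes (12.1% higher and 17.4% lower in lactation). Without pregnancy day 14 replicate 3 the genes called higher numbered 1537 in place of 2438, while the count of desaturases called stayed at 6 whichever array was left out. The split of all calls depends on the scaling. Lower genes made up 62.3% of them here, 53.2% once arrays were quantile normalized, 47.1% when each was centred on its median, 33.3% with arrays centred on the brighter genes and 14.4% with arrays centred on 8 reference genes, which moved the median of all genes to 0.22. No scaling reversed the direction of a desaturase.

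**Figure D1:**
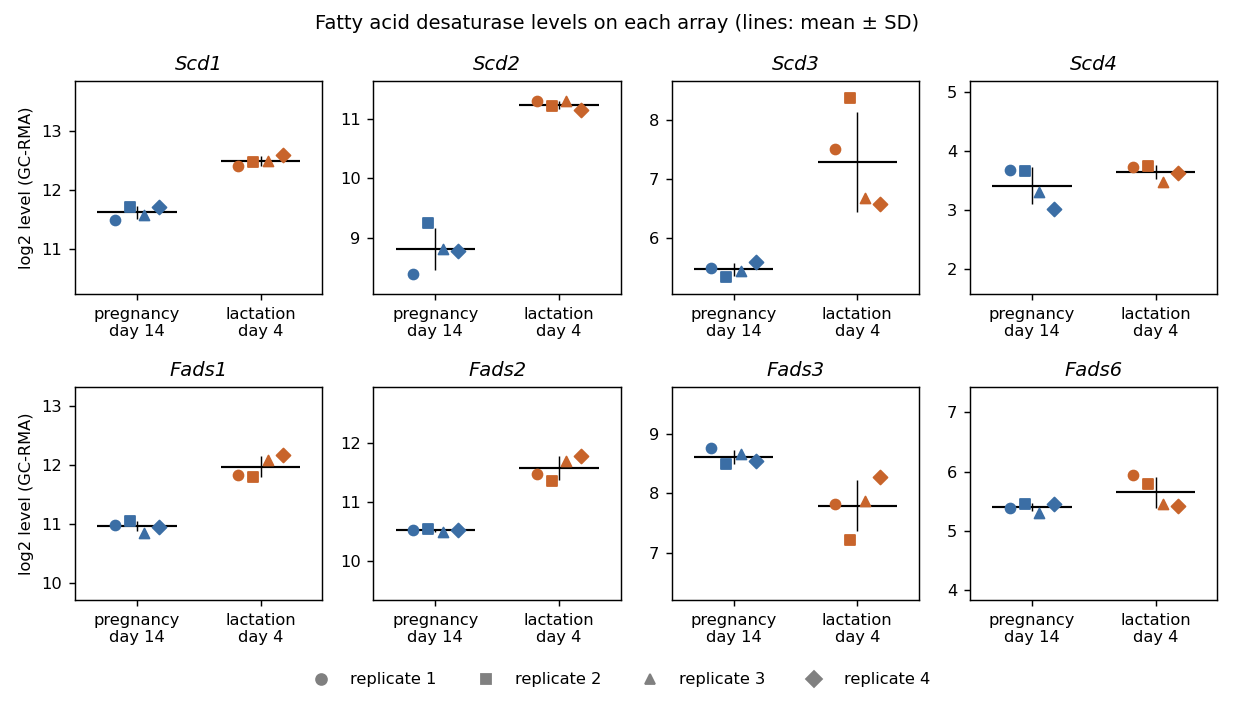
Log2 level (GC-RMA) of each desaturase on every array, with pregnancy day 14 in blue and lactation day 4 in orange, the symbol giving the replicate and the black lines the mean and SD of 4 arrays. Every panel spans the same log2 range, so distances can be compared: the stages separate in Scd1, Scd2, Scd3, Fads1 and Fads2 (higher in lactation) and Fads3 (lower), and overlap in Scd4 and Fads6.

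Scd2, described in mice for its part in brain, neonatal skin and myelin, showed the widest change. Its 4 lactation arrays read 11.30, 11.22, 11.30 and 11.15, and its pregnancy arrays 8.39, 9.25, 8.81 and 8.78 (log2, replicates 1 to 4, probe set 10463355). The lactation arrays lay within 0.15 of each other and the pregnancy arrays were spread more widely, yet 1.90 log2 units separated the closest pair across stages. The log2 fold change was 2.43 (SE 0.147, 95% interval 2.11 to 2.76, limma adjusted p = 5.49e-06), a 5.41-fold rise that ranked 45 among the rises of all 25050 genes. No Schwann or myelin marker of 6 passed the threshold in limma (1 did, as lower, without lactation day 4 replicate 1), and their median log2 fold change was -0.22.

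Scd1 is the form that predominates in mouse liver and adipose tissue. It read 12.40, 12.47, 12.49 and 12.59 in lactation and 11.49, 11.71, 11.57 and 11.71 in pregnancy (probe set 10467979). The groups did not overlap and each was narrow, with SDs of 0.08 and 0.11. Its log2 fold change of 0.87 (SE 0.0601, 95% interval 0.73 to 1.00, limma adjusted p = 1.27e-05) corresponds to 1.83-fold. These levels approach the top of the scale, at 13.03, where GC-RMA values can be compressed, so the fold may be understated. Adipocytes also express Scd1, and with the mean of the adipocyte markers added to the fit its log2 fold change was 0.90 (limma adjusted p = 1.56e-05). The median log2 fold change of those markers was 0.17. Their mean, which is the added term, ran from 7.0 to 8.01 on the lactation arrays and from 6.04 to 7.57 on the pregnancy arrays. This fit cannot show what part adipocytes have in the Scd1 signal, which was not tested.

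Scd3, known in mice from skin sebaceous and Harderian glands and acting mainly on palmitoyl-CoA, was low and even in pregnancy, at 5.49, 5.34, 5.44 and 5.60. In lactation it read 7.51, 8.36, 6.67 and 6.58 (probe set 10463347), so that replicates 1 and 2 stood above replicates 3 and 4 and the SD was 0.84 against 0.11 in pregnancy. Even the lowest lactation array was 0.97 above the highest pregnancy array. The log2 fold change was 1.81 (SE 0.335, 95% interval 1.06 to 2.56, limma adjusted p = 0.00364), or 3.51-fold. It was 1.45 without lactation day 4 replicate 2, the highest array, and stayed called. The fibroblast markers averaged 7.29, 6.21, 7.32 and 7.56 on the same 4 lactation arrays, lowest where Scd3 was highest. With their mean added to the fit the log2 fold change of Scd3 was 0.89 (SE 0.301, limma adjusted p = 0.108), a term that also took the calls over all genes from 6463 to 2271. Of 6 sebaceous gland markers 1 passed as higher (none without any single array other than lactation day 4 replicate 4 or pregnancy day 14 replicate 1), with a median log2 fold change of 0.03.

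Scd4, first described in mouse heart, was the dimmest of the 8. Its lactation arrays read 3.72, 3.74, 3.48 and 3.62 and its pregnancy arrays 3.67, 3.66, 3.30 and 3.02 (probe set 10463361), and the groups overlapped. The log2 fold change was 0.23 (95% interval -0.07 to 0.53, limma adjusted p = 0.238). Differences this near the bottom of the scale can be compressed. The Scd genes are close paralogs, and whether a probe set also picked up RNA of its relatives was not tested.

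Fads1 and Fads2, which carry the polyunsaturated pathway, moved by nearly equal amounts. Fads1 read 11.84, 11.80, 12.08 and 12.17 in lactation and 10.99, 11.06, 10.86 and 10.96 in pregnancy (probe set 10461439). Fads2 read 11.47, 11.35, 11.69 and 11.78 in lactation and 10.53, 10.54, 10.50 and 10.53 in pregnancy (probe set 10465895). In both, lactation replicates 3 and 4 were above replicates 1 and 2, and every lactation array was above every pregnancy array. Fads1 rose by a log2 fold change of 1.00 (SE 0.0834, 95% interval 0.82 to 1.19, limma adjusted p = 3.76e-05), or 2.00-fold. Fads2 rose 2.07-fold, a log2 fold change of 1.05 (SE 0.086, 95% interval 0.86 to 1.24, limma adjusted p = 3.45e-05). The lactation levels of both genes also lie toward the top of the scale, so these folds may be understated too.

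Fads3, reported in mammals to act on the sphingoid base of ceramides, went the other way. Its lactation arrays read 7.83, 7.22, 7.87 and 8.27 and its pregnancy arrays 8.77, 8.50, 8.66 and 8.54 (probe set 10461423). All 4 lactation arrays were below the pregnancy arrays, the closest pair being 0.24 apart, and replicate 2 was the lowest. Fads3 fell by 0.82 on the log2 scale (SE 0.187, 95% interval -1.24 to -0.41, limma adjusted p = 0.0102), 1.77-fold lower in lactation. Lactation replicate 2 was also the lowest array for the fibroblast markers, and with their mean in the fit the log2 fold change was -0.41 (SE 0.217, limma adjusted p = 0.296). The call also ended in a linear model without moderation (adjusted p = 0.0521). Without lactation day 4 replicate 2 the log2 fold change was -0.63 (limma adjusted p = 0.0076).

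Fads6, a member whose substrate is not well established, read 5.95, 5.79, 5.45 and 5.42 in lactation and 5.38, 5.46, 5.30 and 5.45 in pregnancy (probe set 10392894). Lactation replicates 1 and 2 were above all the pregnancy arrays and replicates 3 and 4 were within their range. The log2 fold change of 0.25 (95% interval -0.02 to 0.53, limma adjusted p = 0.159) did not pass the threshold.

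**Figure D2:**
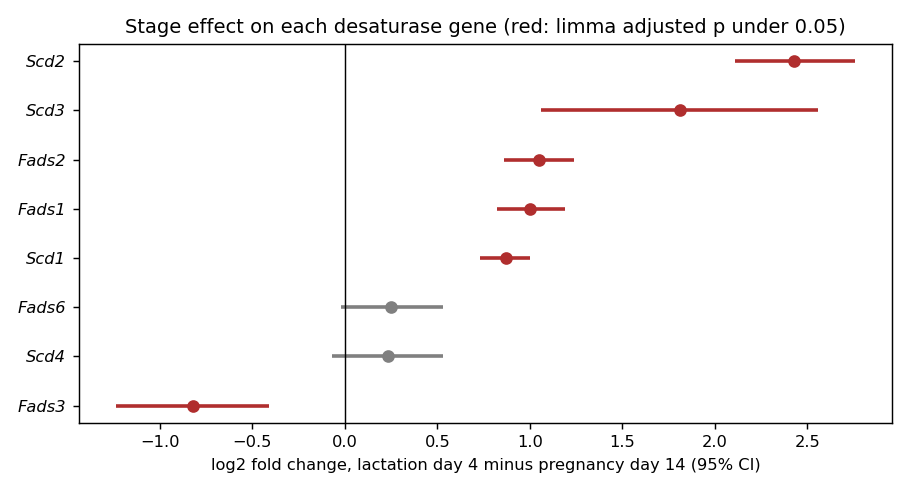
Log2 fold change of each desaturase between lactation day 4 and pregnancy day 14 (points) with its 95% confidence interval (bars) from the limma fit over all genes, 4 arrays per stage. The estimates run from -0.82 for Fads3 to 2.43 for Scd2, and the intervals of Scd4 and Fads6 include 0.

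Whether related desaturases changed by different amounts was tested on the difference between 2 genes on each array, for 6 pairs, by two-sided exact permutation over the 70 splits of the arrays, which cannot give a p below 0.0286. The 95% intervals of these differences come from a t distribution with the pooled SD of the 2 stages and not from the permutation. An interval can therefore leave out 0 where the permutation p is above 0.05. These differences are between values as scaled. Scd1, and in lactation Fads1 and Fads2, lie toward the top of the scale and Scd4 near the bottom, where values can be compressed. How much of any difference involving these genes comes from compression was not tested. The measured log2 change of Scd2 exceeded that of Scd1 by 1.57 (95% interval 1.19 to 1.94), the difference Scd2 minus Scd1 running from -1.44 to -1.10 on the lactation arrays and from -3.09 to -2.46 on the pregnancy arrays (exact permutation p = 0.0286, adjusted over the 6 pairs 0.0571). Fads3 differed from Fads1 by -1.83 and from Fads2 by -1.87 in its change, with the same exact permutation p of 0.0286 and 0.0571 after adjustment. No lactation array overlapped a pregnancy array in these 3 pairs, but none passed 0.05 after adjustment, which was out of reach unless more pairs had separated fully. For Scd3 minus Scd1 the difference was 0.94 (95% interval -0.16 to 2.04) and for Scd4 minus Scd1, which joins both ends of the scale and does not show that Scd4 RNA changed less, it was -0.64 (95% interval -1.14 to -0.14), each with an exact permutation p of 0.0571 and 0.0686 after adjustment. Between Fads1 and Fads2 the change differed by 0.05 log2 units (95% interval -0.05 to 0.14, exact permutation p = 0.314, adjusted 0.314).

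Fads1 and Fads2 also followed each other array by array. Each gene was centred on its own mean over the 8 arrays and compared with 20669 other named genes by the root mean square difference of the centred log2 values, as a description with no test. The gene with the profile most like that of Fads1 was Fads2, at 0.0532, followed by Pdhb, a subunit of pyruvate dehydrogenase, at 0.0536 and Fam160a2 at 0.0723. For Fads2 the closest were Pdhb at 0.0428, Fads1 and Fam160a2 at 0.0714. Scd1 was farther from Fads1, at 0.122, and Scd2 at 0.756. Scd2 was most like Glrx, a glutaredoxin (0.198), Pthlh, the parathyroid hormone-like peptide (0.238), and Qsox1, a sulfhydryl oxidase (0.24). These 3 had log2 fold changes of 2.17, 2.17 and 2.23. Scd3 had looser matches in Skint2 (0.316), Calr4, a calreticulin (0.324), and Tmem144 (0.344). Their lactation arrays shared the pattern of Scd3, with replicates 1 and 2 above 3 and 4: Skint2, for example, read 5.71, 5.60, 3.86 and 3.74. Skint2 and Calr4 were dim, with 23.3% and 27.9% of genes at a lower mean, and Skint2 read 2.99 to 3.04 in pregnancy. With the fibroblast markers as a term the calls of Skint2, Calr4 and Tmem144 ended (limma adjusted p = 0.334, 0.146 and 0.13). Skint2 also lost its call in a linear model without moderation (adjusted p = 0.0741). All 8 arrays share the stage difference, so likeness here includes likeness in the size of that difference.

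**Figure D3:**
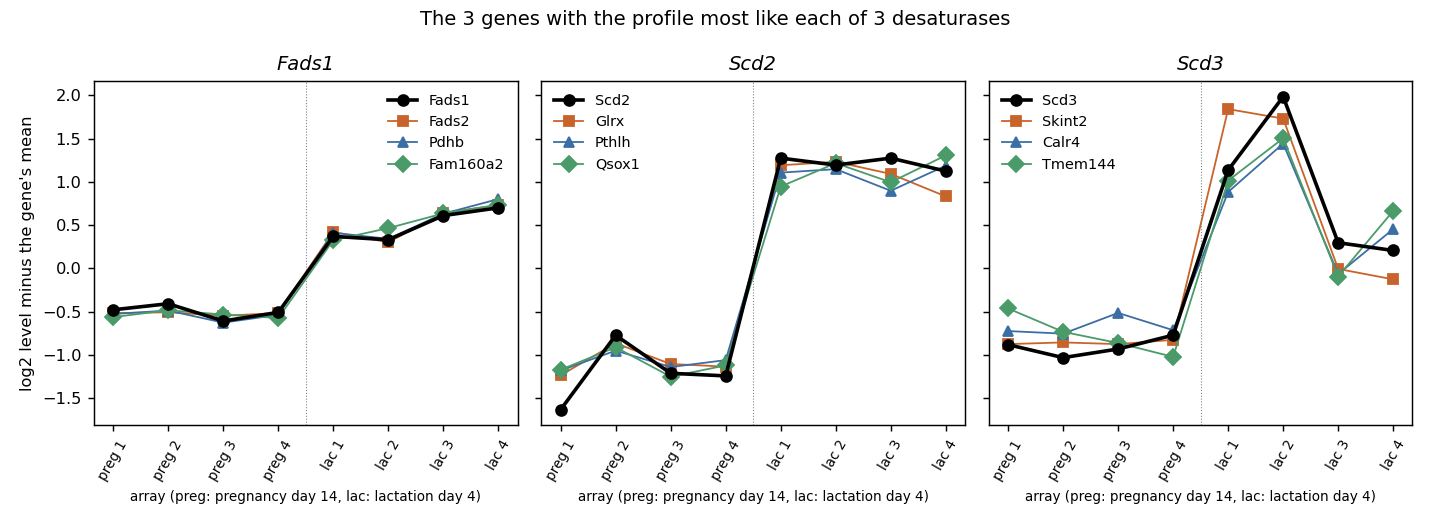
Log2 level minus the gene's own mean over the 8 arrays, for Fads1, Scd2 and Scd3 (black) and the 3 named genes with the smallest root mean square difference from each. Fads1 and its closest genes lie close to each other at every array, whereas Scd3 and its closest genes share a split between lactation replicates 1 and 2 and replicates 3 and 4.

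By gene order in the RefSeq table of GRCm38.p6, both families lie in runs on chromosome 19, with Scd3, Scd2, Scd4 and Scd1 next to each other and Fads3, Fads2 and Fads1 next to each other, and 0 other coding genes between members of a run. Fads6 is on chromosome 11. The 3 coding genes on each side of the 2 runs and of Fads6 gave 18 neighbours, all measured, of which 4 passed as higher and 1 as lower, where the shares of all genes were 9.73% and 16.1%. Beside the Fads run, Fen1, a flap endonuclease, had a log2 fold change of 0.62 and Myrf, a transcription factor, of 0.60. The call of Fen1 ended in a linear model without moderation (adjusted p = 0.0581) and with the fibroblast markers as a term (limma adjusted p = 0.0595). Beside the Scd run, Ndufb8, a subunit of respiratory complex I, rose by 0.48 (limma adjusted p = 0.0503 without pregnancy day 14 replicate 3) and Bloc1s2, a lysosome-related protein, had a log2 fold change of -0.38. The call of Bloc1s2 ended after quantile normalization (limma adjusted p = 0.1) and with arrays centred on the reference genes (0.134). With the fibroblast markers as a term the calls of Bloc1s2 (limma adjusted p = 0.293) and Ndufb8 (0.0512) ended. Ush1g, beside Fads6, rose by 0.47, a call that ended without lactation day 4 replicate 2 or pregnancy day 14 replicate 2, 3 or 4 (limma adjusted p from 0.056 to 0.0813). Within the Fads run the directions were mixed, with Fads3 falling beside 2 Fads genes that rose. In the Scd run 3 genes rose, and Scd4 overlapped between stages with a positive estimate of 0.23.

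Fads2 and Fads3 are neighbours that went in opposite directions, and their upstream sequences are shown for that reason. They are the 250 bases before the RefSeq start, from the C57BL/6J reference and not from FVB, printed 5′ to 3′ on the strand of the gene. Windows of this kind were at hand for Scd3, Scd4, Fads2, Fads3 and Fads6. Capitals mark CCAAT, the core of the NF-Y box, and GGGCGG, a GC box, on either strand, which do not overlap here.

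Fads2, GRCm38.p6 chr19:10101504-10101753, minus strand: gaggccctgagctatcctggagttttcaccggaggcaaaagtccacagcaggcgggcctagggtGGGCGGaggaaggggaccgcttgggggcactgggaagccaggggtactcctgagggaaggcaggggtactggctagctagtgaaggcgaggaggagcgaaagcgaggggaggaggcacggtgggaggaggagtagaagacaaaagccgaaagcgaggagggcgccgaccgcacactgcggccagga
Fads3, GRCm38.p6 chr19:10041298-10041547, plus strand: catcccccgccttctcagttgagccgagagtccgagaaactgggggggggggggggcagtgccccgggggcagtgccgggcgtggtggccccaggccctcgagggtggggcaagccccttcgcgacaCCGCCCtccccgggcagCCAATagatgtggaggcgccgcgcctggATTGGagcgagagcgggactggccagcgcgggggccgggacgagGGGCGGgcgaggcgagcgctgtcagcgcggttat

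The Fads3 window held 2 NF-Y boxes, with first bases 106 and 78 before the start, and 2 GC boxes. The Fads2 window held 1 GC box, 186 before the start, and no NF-Y box. Both motifs are common: 33.8% of 32851 mouse windows of this length hold CCAAT and 32.7% hold GGGCGG. Neither TCACNCCAC, a sterol regulatory element core present in 1.05% of windows, nor the E-box CACGTG, in 6.02%, was in any of the 5 windows, and those of Scd3 and Scd4 held none of the 4 motifs. The Fads6 window held 1 GC box.

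The genes around the desaturases were taken as 7 lists by role, chosen like the members with earlier results of these data known, and are described by counts against the shares of all genes given above. In the list for supply of saturated fatty acid 9 of 9 genes rose, and the median was 1.39. The 4 widest rises were those of the carboxylase gene Acacb at 2.57 (SE 0.184), the citrate carrier Slc25a1 at 2.48, the malic enzyme Me1 at 1.98 and the acetyl-CoA synthetase Acss2 at 1.69 (all log2). Acaca, the other listed carboxylase gene, rose by 1.28, and the part of either in fatty acid supply was not tested. In the elongation cycle 6 of 13 genes rose and 2 fell (1 without lactation day 4 replicate 1 or 2), with a median of 0.28. Elovl5, the elongase that acts between Fads2 and Fads1, rose from 9.19 ± 0.17 to 11.09 ± 0.17 (SD, n = 4 per stage), a gain of 1.89 (SE 0.103, limma adjusted p = 3.1e-06). Elovl6, which lengthens palmitate to the stearate used by the Scd enzymes, rose by 1.75 and Elovl1 by 1.12. Hacd4, a dehydratase of the cycle, had a log2 fold change of -0.70, a call that ended without lactation day 4 replicate 1 or 2 (limma adjusted p = 0.0505 and 0.0554).

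In the list for electron supply to the desaturases 4 of 6 genes rose (2 without pregnancy day 14 replicate 1 or 2), with a median of 0.30 and none lower. Cyb5b, the mitochondrial outer membrane cytochrome b5, rose by 1.07 (SE 0.0955, limma adjusted p = 5.7e-05) and Cyb5a, the form of the endoplasmic reticulum, by 0.63 (SE 0.132, limma adjusted p = 0.00717). The reductases Cyb5r3 and Cyb5r2 had log2 fold changes of 0.35 and 0.25. Cyb5r2 was dim, averaging 3.34 in pregnancy and 3.58 in lactation, near the bottom of the scale. The call of Cyb5r3 ended without lactation day 4 replicate 2 or pregnancy day 14 replicate 1 or 2 (limma adjusted p from 0.0508 to 0.0615) and that of Cyb5r2 without pregnancy day 14 replicate 1, 2 or 4 (0.0581 to 0.0719). Among other membrane lipid desaturases, of which 4 of 6 listed genes had a probe set under their symbol, Msmo1, a sterol methyl oxidase, rose by 2.18 and Sc5d, a sterol desaturase, by 0.53. For the ceramide desaturases the estimates were 0.31 in Degs1 (limma adjusted p = 0.147) and 0.03 in Degs2 (0.743).

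**Figure D4:**
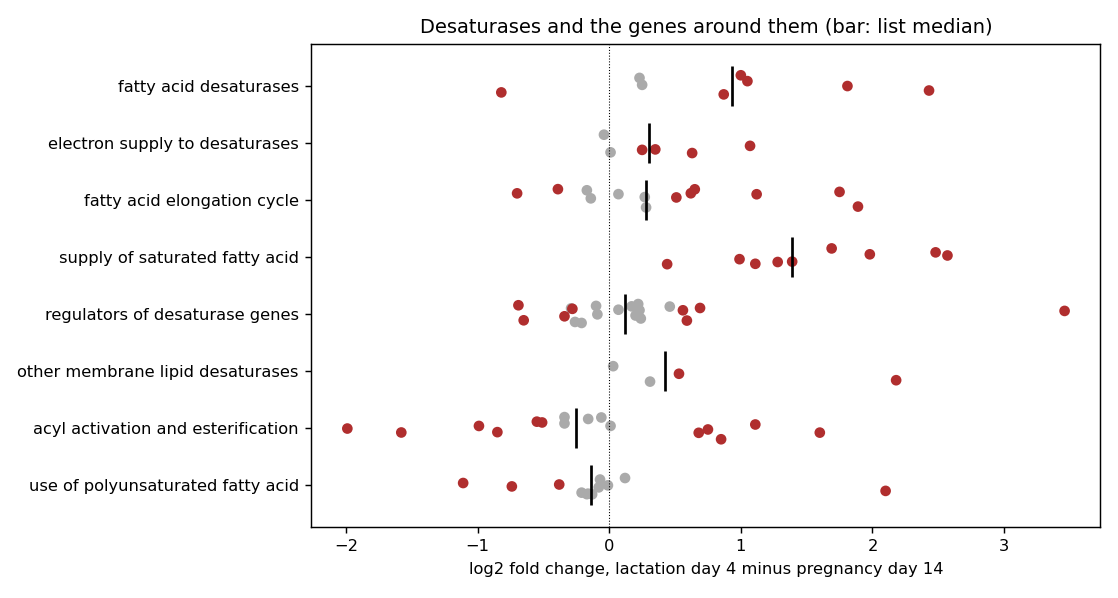
Log2 fold change, lactation day 4 minus pregnancy day 14, of every measured gene in the desaturase set and the 7 lists around it, with genes past a limma adjusted p of 0.05 in red, other genes in grey and the list median as a bar. All 9 genes of saturated fatty acid supply are red and above 0, while esterification spreads from -1.99 to 1.60.

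Among 20 regulators of the desaturase genes 4 were called higher and 4 lower, with a median of 0.12. The lower count was 2 without pregnancy day 14 replicate 1, 2 or 3, and 2 after quantile normalization. Over all genes 9.73% were called higher and 16.1% lower, so the lower count is near the share of all genes. Insig1, a sterol-responsive gene whose product retains SREBPs in the endoplasmic reticulum, rose by 3.46, the widest change in these 7 lists, and Mlx, a partner of the sugar-responsive factor ChREBP, by 0.69. Nfya, a subunit of NF-Y, fell by 0.69 on the log2 scale and Nr1h3, encoding LXR alpha, by 0.65. Srebf1, encoding SREBP-1, stood 0.23 higher on the log2 scale (limma adjusted p = 0.204) and was not called. With arrays centred on the reference genes, 9 regulators were called higher and 2 lower, where 12311 of all 25050 genes were called higher and 2067 lower.

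Genes that use the products went both ways. In acyl activation and esterification 5 of 16 rose and 6 fell, with a median of -0.25. Lpin1, a phosphatidate phosphatase, rose by 1.60 and Agpat1, a lysophosphatidate acyltransferase, by 1.11. Mboat2 and Lpcat1, which reacylate lysophospholipids, fell by 1.99 and 1.58. For the use of polyunsaturated fatty acid 1 of 12 rose and 3 fell, with a median of -0.14. Over all genes 9.73% were called higher and 16.1% lower, so counts this small are not read as a trait of this list. Ptgs1, a cyclooxygenase that acts on arachidonic acid, rose from 6.40 ± 0.64 to 8.50 ± 0.40 (SD, n = 4 per stage), a gain of 2.10 (SE 0.301, limma adjusted p = 8.75e-04). Ptges, a prostaglandin E synthase, fell by 1.11 and Alox5ap, which presents arachidonic acid to a lipoxygenase, by 0.74. Scp2, a lipid carrier and peroxisomal thiolase, had a log2 fold change of -0.38, and its call ended when any single array other than lactation day 4 replicate 4 was left out (limma adjusted p from 0.057 to 0.0816).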

How the data were processed

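RNA of 8 samples was measured on Affymetrix whole-transcript arrays. The authors deposited 1 log2 value for each probe set on each array. The normalization was GC-RMA and the software Partek, per the submitters' processing notes; the sources used here give no version, annotation release or genome build. A second deposited table held the same log2 values (largest difference 0). Groups came from sample titles. The 35556 probe sets included 26836 with a symbol. Symbols were updated through RefSeq (25793 matched) and the brightest probe set was kept per gene, giving 25050 genes. Nothing was renormalized or filtered.

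The 2 stages were set against each other with limma 3.58.1 under R 4.3.3, using an intensity trend and adjusting by Benjamini-Hochberg over all genes. The number of arrays limits the precision, and the median half-width of the 95% interval of a log2 fold change was 0.211. On simulated arrays with 25050 genes, 52.2% of shifts of 0.5, 91% of shifts of 1 and 98.5% of shifts of 2 log2 units were recovered, with 5 false calls among 166. Noise was drawn independently for each gene, and 67, 67 and 66 genes were shifted, far fewer than the 6463 called in the data. The shares recovered and the false calls therefore need not hold for the real arrays.

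Same-numbered arrays deviated from their stage means with correlations of 0.242, -0.164, 0.151 and 0.178, so replicate numbers were not taken as pairs. The members and all lists were chosen with earlier results of these data known. Named genes were all members, up to 4 called genes per list with the widest changes, the 3 most alike genes of each member called with a log2 change of at least 1, and called neighbours. A few others (Csn1s1, Csn2, Csn3, Srebf1, Degs1 and Degs2) were named after their values were seen. The motifs were also chosen after the data had been seen.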

Additional observations from a re-analysis of the deposited data

Results flagged for a closer look

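Among the 47 genes named by rule, 94 groups of 4 arrays were screened for a single array far from the other 3, and 6 were marked, where chance marks about 1 group in 20. Fads2 read 10.50 on pregnancy day 14 replicate 3 against 10.53 to 10.54 on the others, a gap that is wide only beside the very small spread of this group. Elovl6 read 7.41 on pregnancy day 14 replicate 4 against 8.39 to 8.56. Ptgs1 read 7.35 on that array against 6.02 to 6.13, toward its lactation level, and Mboat2 6.40 against 6.21 to 6.24. Cyb5b read 10.00 on lactation day 4 replicate 3 against 9.76 to 9.79. Calr4 read 3.58 on pregnancy day 14 replicate 3 against 3.34 to 3.38.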

How the results depend on the processing

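Over the alternatives run, 170 of 175 recomputed desaturase fold changes kept direction and side of the threshold, and none reversed. Scd1, Scd2, Fads1 and Fads2 stayed called throughout, with ranges of 0.79 to 1.08, 2.30 to 2.66, 0.94 to 1.21 and 0.98 to 1.26. With the fibroblast markers as a term, chosen after seeing the data, Scd3 (0.89) and Fads3 (-0.41) lost their calls, genes called numbered 848 higher and 1423 lower, and list genes called numbered 30 in place of 46. That term takes a degree of freedom and overlaps with stage. Without moderation Fads3 (-0.82) lost its call. Centring on the reference genes called Scd4 (0.44) and Fads6 (0.46) and gave 12311 higher and 2067 lower genes. Centring on medians gave 3719 higher genes, and on the brighter 60% of genes, chosen after seeing the data, 6089. Leaving out 1 array gave 1537 to 2487 higher genes and 2878 to 3939 lower. After quantile normalization 5 pair differences passed at an adjusted exact permutation p of 0.0343, with Scd2 minus Scd1 at 1.69, Scd3 minus Scd1 at 1.12, Scd4 minus Scd1 at -0.62, Fads3 minus Fads1 at -1.73 and Fads3 minus Fads2 at -1.79. All 5 involve Scd1, Fads1 or Fads2 and carry the limit of a scale that can be compressed near its ends, as does Scd4. With the replicate number as a block, 2530 genes were called higher and 3935 lower, Scd1 stayed at 0.87, Scd3 at 1.81 and Fads3 at -0.82, and no desaturase call changed, but all 6 fibroblast marker calls and the 1 sebaceous marker call ended. The best partner by number held for replicates 3 and 4 only. Of 855 recomputed values of other named genes, 52 ended a call and none reversed. Scd4 was lost to the filter on the dimmest 40% of genes. The cause of these changes was not tested.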
